A study of Homo sapiens with 8 samples.

Results

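Matrix-high cells under JQ1 with palbociclib were the cells of the JQ1+palbociclib library with 5 or more raw UMIs (unique molecular identifiers, each standing for 1 captured RNA molecule) summed over COL1A1, TIMP3 and HTRA3. There were 143 of them among the 1024 cells of that library and the 5738 cells of the series. They were set against 633 matrix-low cells of the same library, which had 0 or 1 such UMI. The cells were of SUM159, a human cell line established from a triple-negative breast cancer, infected with the ClonTracer lentiviral barcode library and passaged under drug to follow which subpopulations outlasted treatment. The 8 single-cell libraries were pre-treatment cells, DMSO vehicle, paclitaxel at 0.6 nM, palbociclib at 160 nM, JQ1 at 100 nM (in 2 libraries called JQ1-A and JQ1-B), and both combinations of JQ1 at the same doses, after up to 18 passages. JQ1 displaces BET bromodomain proteins from acetylated chromatin, palbociclib inhibits CDK4 and CDK6, kinases of the cell cycle, and paclitaxel keeps microtubules from coming apart. The paper names a JQ1+palbociclib and a JQ1+paclitaxel experiment, and its plots show DMSO in both. The library labels do not state the experiment of any library. In the order listed, DMSO, paclitaxel and JQ1-A precede JQ1+paclitaxel, and palbociclib and JQ1-B precede JQ1+palbociclib. Which libraries were made together is not stated, and only 1 DMSO library was analysed here. Every library pooled the replicate cultures of its treatment, and 1 JQ1+palbociclib culture had died out under selection, so that the pool held 2 cultures that the counts do not tell apart. Each library therefore counted as 1 sample, and differences inside the JQ1+palbociclib library carry intervals for counting error but no test.

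Extracellular matrix is built from secreted collagens and glycoproteins and is remodelled by proteases and their inhibitors. COL1A1 encodes the alpha-1 chain of type I collagen, which normally assembles with the alpha-2 chain from COL1A2, TIMP3 encodes a matrix-bound inhibitor of metalloproteinases, and HTRA3 encodes a secreted serine protease. FN1 encodes fibronectin, the glycoprotein through which integrins hold many cells to matrix, and H2AFJ encodes a histone H2A variant known to accumulate in senescent cells. CDK4 and CDK6 drive cells out of G1 by phosphorylating the retinoblastoma protein, the product of RB1, so that RB1 is a gene known to matter for the response to palbociclib.

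The 3 genes that chose the cells are given as a description. The median member held 8 UMIs of them and the highest held 37, with 55 members at 10 or more and 12 at 20 or more. TIMP3 supplied 55.3% of the members' UMIs of the 3 genes, COL1A1 28.5% and HTRA3 16.3%. All 3 genes were seen in 78 members, 2 of them in 55, and a single gene in 10, which was TIMP3 in 9. Summed over cells and scaled to a total of 1000000 UMIs per group (CPM), members against low cells stood at 107 against 3.90 CPM for COL1A1, 208 against 8.51 CPM for TIMP3 and 61.1 against 3.26 CPM for HTRA3. Near the threshold, the 31 members with exactly 5 UMIs had 98.3 CPM of H2AFJ and 533 CPM of FN1, and the 46 cells just outside it with exactly 4 had 136 and 391 CPM.

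Depth differed little between members and low cells. The median member had 24707 UMIs and 3864 genes, and the median low cell 21534 UMIs and 3834 genes. Mitochondrial RNA made up 5.31% of UMIs in the median member and 7.58% in the median low cell, and ribosomal protein RNA 32.6% and 29.5%. Over the whole series the 8 libraries held 459 to 1024 cells, 13 cell barcodes occurred in more than 1 library, none of them in a member, and 97.2% of cells (all members but 1) passed the study's own limits on mitochondrial share and gene number, which the deposited table had not applied. The label was checked against its markers. FN1 was seen in 99.3% of members and 88.5% of low cells, and H2AFJ in 88.8% and 49.6%. Of the collagens, COL1A2 and COL3A1 were absent or nearly so: COL1A2 had 0 UMIs in members and in low cells, and COL3A1 had 1 UMI in members and 4 in low cells. Other collagens, among them COL5A1, COL6A1 and COL6A2, were high enough to be compared below. Lumican (LUM) had 0 UMIs in both. The cells are therefore called matrix-high only by the rule.

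Promoter sequence is shown for the 2 rule genes and the 2 further markers that had an entry among the RefSeq promoters (build GRCh38.p14), because the rule and the check of the label rest on these 4 genes. Each run gives the 250 bases before the gene's start, 5′ to 3′ on the gene's strand, with the GC box GGGCGG and the CCAAT box in capitals on either strand and overlapping matches counted. The windows were chr22:32801455-32801704 on the plus strand, chr4:8269504-8269753 on the plus strand, chr12:14774155-14774404 on the plus strand (H2AFJ is listed there under its current symbol H2AJ) and chr2:215436069-215436318 on the minus strand.
TIMP3: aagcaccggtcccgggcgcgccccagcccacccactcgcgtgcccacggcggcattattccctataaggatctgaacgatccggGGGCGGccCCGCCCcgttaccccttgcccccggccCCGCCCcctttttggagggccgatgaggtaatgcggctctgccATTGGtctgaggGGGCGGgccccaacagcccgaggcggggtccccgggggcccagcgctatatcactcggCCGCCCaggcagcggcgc
HTRA3: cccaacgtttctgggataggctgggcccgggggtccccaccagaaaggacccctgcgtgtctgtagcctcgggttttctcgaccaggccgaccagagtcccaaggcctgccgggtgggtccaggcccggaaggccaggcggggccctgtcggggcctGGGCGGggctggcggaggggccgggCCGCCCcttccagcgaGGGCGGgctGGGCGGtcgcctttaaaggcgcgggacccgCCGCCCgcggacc
H2AFJ: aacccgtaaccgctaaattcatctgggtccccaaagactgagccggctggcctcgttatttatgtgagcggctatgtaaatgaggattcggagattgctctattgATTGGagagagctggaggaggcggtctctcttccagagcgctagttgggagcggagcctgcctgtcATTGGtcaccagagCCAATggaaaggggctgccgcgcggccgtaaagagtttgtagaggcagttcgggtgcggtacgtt
FN1: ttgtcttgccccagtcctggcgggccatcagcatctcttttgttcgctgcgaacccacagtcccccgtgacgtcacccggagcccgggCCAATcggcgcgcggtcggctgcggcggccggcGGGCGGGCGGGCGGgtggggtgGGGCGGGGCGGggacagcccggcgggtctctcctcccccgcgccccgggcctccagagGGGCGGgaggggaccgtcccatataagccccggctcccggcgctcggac
TIMP3 held 5 GC boxes and 1 CCAAT box, HTRA3 5 and 0, FN1 6 and 1, and H2AFJ 0 and 3. Of 35116 promoters of the same length, 42.6% held a GC box and 32.0% a CCAAT box, so neither word was shared by all 4 genes, and both are common.

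The rule was next applied to the other 7 libraries. It was met by 24.1% of pre-treatment cells, 30.7% in DMSO, 29.1% in paclitaxel, 22.5% in palbociclib, 23.8% in JQ1-A, 17.1% in JQ1-B and 19.1% in JQ1+paclitaxel, and by 13.97% (exact 95% binomial interval 11.9 to 16.2%) in JQ1+palbociclib. The share was thus lowest in the library whose matrix-high cells are described here. When every cell was thinned to 10000 UMIs, the shares lay between 3.55% in JQ1-B and 8.24% in DMSO, and JQ1+palbociclib, at 5.13%, was no longer at the end of the range. The spread of the 3 genes over cells is given as a description, since the rule used these values, and without adjustment for depth. In JQ1+palbociclib the variance of their summed UMIs was 7.10 times the mean, against 3.20 to 5.05 times in the other libraries, and the top 10% of cells held 52.5% of these UMIs, against 32.3 to 40.5% elsewhere.

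**Figure D1:**
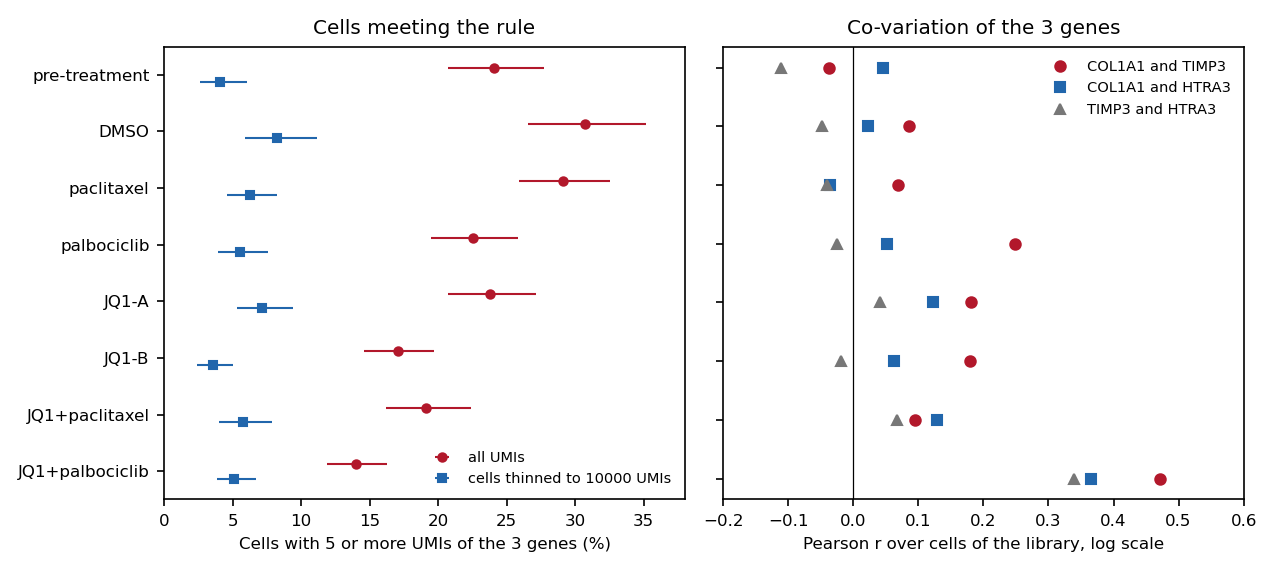
Left, percent of cells in each library with 5 or more UMIs of COL1A1, TIMP3 and HTRA3, with exact 95% binomial intervals, for all UMIs (red circles) and for cells thinned to 10000 UMIs (blue squares). Right, Pearson r of each gene pair over the cells of a library on a log scale; the 3 values of JQ1+palbociclib lie between 0.34 and 0.47, to the right of all values of the other libraries.

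The 3 genes also went together from cell to cell there. Over its 1024 cells Pearson's r on a log scale was 0.47 for COL1A1 with TIMP3, 0.37 for COL1A1 with HTRA3 and 0.34 for TIMP3 with HTRA3, whereas the values of the other libraries ran from -0.11 to 0.25. These correlations are descriptions over cells that share a library and differ in depth. Cells were also chosen on part of the 3 genes and the rest read out. The 3 genes were picked with results of this library known, so these ratios are a further description and no independent check. Among cells of JQ1+palbociclib chosen on COL1A1 and HTRA3 alone (2 or more UMIs against 0), TIMP3 was 4.501-fold higher (95% counting interval 3.97 to 5.11), against 0.850 to 1.65-fold in the other libraries. Among cells chosen on TIMP3 alone (3 or more UMIs against 0), COL1A1 was 7.96-fold higher (6.46 to 9.87; other libraries 0.747 to 1.85) and HTRA3 4.03-fold higher (3.17 to 5.14; other libraries 0.513 to 1.21).

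Across the other genes, members were compared with low cells by the ratio of their CPM, with the 3 rule genes left out of the totals. Of 4573 genes with at least 20 CPM and 20 UMIs in the higher group, 172 (3.76%) were at least 1.5-fold higher in members and 494 (10.8%) at least 1.5-fold lower. The median gene had a log2 ratio of -0.14, a ratio of 0.908, and with ratios taken relative to it 275 genes were higher and 241 lower, so that the higher share of the changed genes moved from 25.8% to 53.3%. The same contrast inside the other libraries gave 64 to 180 genes higher and 12 to 139 lower, and 50.8% of all compared genes had a ratio in JQ1+palbociclib outside the range of the other 7 libraries. Of the 172 higher genes, 149 lay above all 7, and of the 494 lower genes, 479 lay below all 7. For the higher genes either group could stand apart, but seldom both for the same gene. Members stood above the matrix-high cells of all other libraries in 68 of 172, and low cells stood below the matrix-low cells of all other libraries in 67. Both held for 9 genes, and in 45 neither group lay outside its counterparts. For the lower genes, members stood below in 286 of 494 and low cells above in 170, with both in 46 and neither group outside in 84. Over all compared genes members stood above in 11.1% and below in 28.1%, and low cells above in 20.3% and below in 17.6%.

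The largest ratio among higher genes was that of KRT75, a keratin of hair follicle epithelium, at 21.7 CPM in members and 2.62 CPM in low cells (8.27-fold, 5.54 to 12.5). KRT75 did not follow the 3 genes over the other libraries as a set, with ratios of 0.572 to 1.90, the highest in JQ1-B (1.30 to 2.77). Its level in members lay within the 13.7 to 87.5 CPM of matrix-high cells elsewhere. The level in low cells lay below the 7.21 to 142 CPM of theirs. No KRT75 UMI was seen in 109 of the 143 members. PTGS1, the constitutive cyclooxygenase of prostaglandin synthesis, stood at 20.9 against 2.84 CPM (7.37-fold, 4.97 to 11.1). CARD16, a caspase recruitment domain protein that restrains caspase-1, stood at 51.0 against 10.3 CPM (4.96-fold), and its level in members lay within the 28.4 to 75.1 CPM of matrix-high cells elsewhere. A transcript listed under the clone name RP3-460G2.2 also had a ratio of 4.96. SYT12, a synaptotagmin of membrane traffic, was 3.84-fold higher, GAMT, the last enzyme of creatine synthesis, 3.19-fold, and the long noncoding RNA LINC00632 2.996-fold. The small calcium-binding proteins S100A3 and S100A2 were 3.11- and 2.95-fold higher, but 1 member held 46.2% of the S100A2 UMIs, and without it S100A2 stood at 15.1 CPM in members.

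Secreted proteins followed among the 15 largest rises. IGFBP7 and IGFBP6, which bind insulin-like growth factors outside the cell, stood at 114 against 39.7 CPM (2.87-fold, 2.53 to 3.26) and 169 against 60.2 CPM (2.80-fold, 2.53 to 3.11). A single member held 32.9% of the IGFBP7 UMIs, and without it IGFBP7 stood at 76.4 CPM. HTRA1, a secreted serine protease related to HTRA3, stood at 119.8 against 42.7 CPM (2.80-fold, 2.48 to 3.17), and its 119.8 CPM in members exceeded the 7.03 to 32.7 CPM of matrix-high cells elsewhere. MEG3, an imprinted long noncoding RNA, lay below the expression limit in JQ1+palbociclib but had 58 UMIs in members and 9 in low cells, or 15.3 against 0.638 CPM (24.0-fold, 11.8 to 55.2). It was named because MEG3 was among the largest rises over the other libraries.

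**Figure D2:**
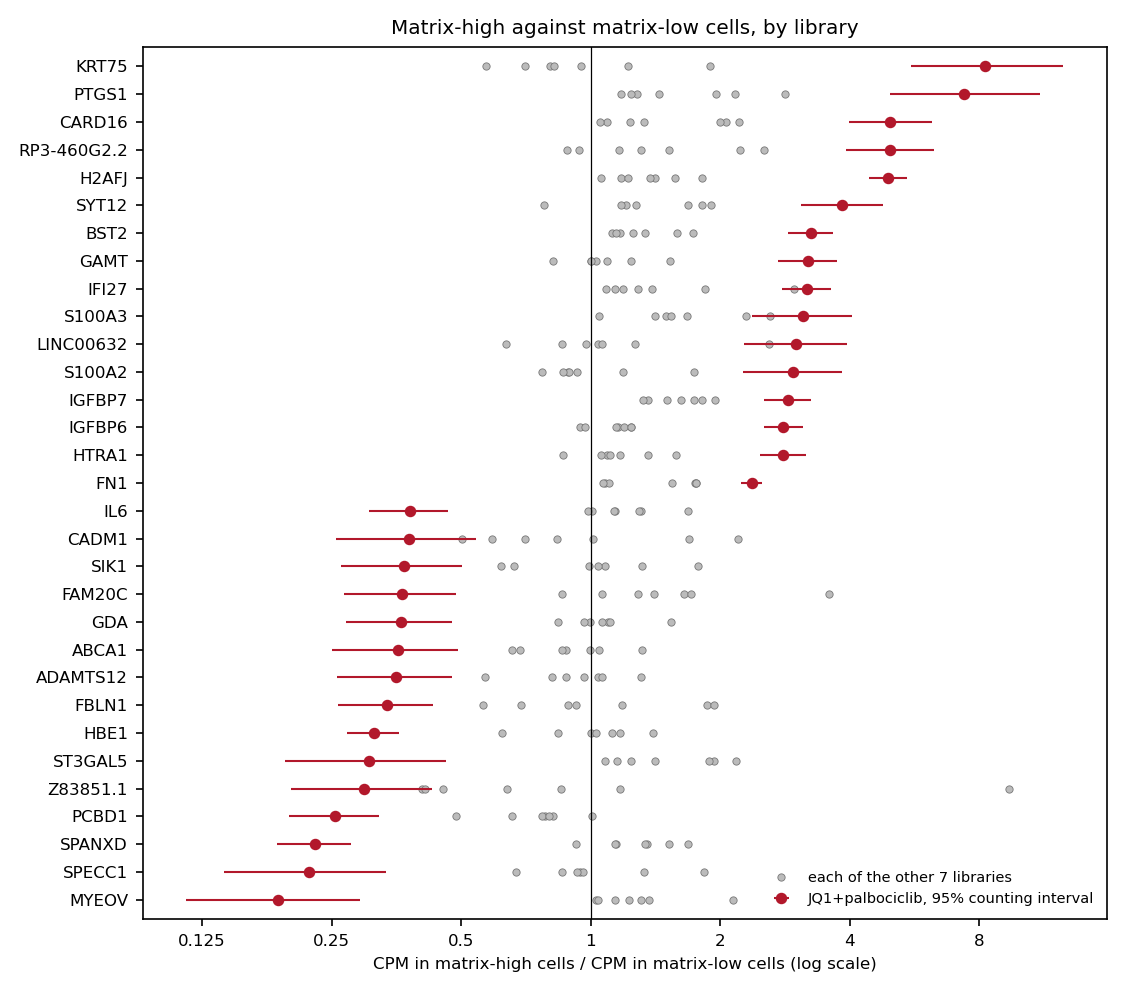
Ratio of CPM in matrix-high to CPM in matrix-low cells (log axis) for the 15 genes with the largest rise and the 15 with the largest fall in JQ1+palbociclib and for FN1; red points with bars are JQ1+palbociclib with its 95% counting interval and grey points the other 7 libraries. KRT75, PTGS1, CARD16 and H2AFJ lie at 4.91-fold or more in JQ1+palbociclib, to the right of every grey point of their rows.

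H2AFJ, a marker that the rule did not use, lies at chr12:14927339-14930936 on the plus strand (GRCh37). The median member held 5 UMIs of it, with a range of 0 to 37, and the median low cell 0, with a range of 0 to 13. In CPM, H2AFJ stood at 226 in members and 46.1 in low cells, a 4.91-fold difference (4.43 to 5.44). Matrix-high cells elsewhere had 212 CPM in pre-treatment, 212 in DMSO, 119 in paclitaxel, 264 in palbociclib, 220 in JQ1-A, 215 in JQ1-B and 268 in JQ1+paclitaxel. The H2AFJ level of members thus lay inside the range of matrix-high cells in other libraries. Low cells elsewhere had 200, 180, 98.0, 187, 121, 156 and 170 CPM in the same order, and the 46.1 CPM of low cells under JQ1+palbociclib lay below all of them. By the number of UMIs of the 3 genes in JQ1+palbociclib cells, H2AFJ rose from 45.1 CPM at 0 UMIs and 47.8 at 1 to 74.5 at 2 to 4, 182 at 5 to 9 and 283 at 10 or more. Reads of H2AFJ may be shared with other H2A genes, so its level is uncertain to that extent.

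FN1, the fibronectin gene at chr2:216225163-216300796 on the minus strand (GRCh37), behaved otherwise. The median member held 12 UMIs (0 to 44) and the median low cell 3 (0 to 40). FN1 stood at 521 CPM in members and 220.1 in low cells (2.37-fold, 2.24 to 2.51). Matrix-high cells had 65.9 CPM in pre-treatment, 82.5 in DMSO, 73.4 in paclitaxel, 267 in palbociclib, 338 in JQ1-A, 204 in JQ1-B and 281 in JQ1+paclitaxel, so that members held more FN1 RNA than matrix-high cells of every other library. The FN1 level of low cells, at 220.1 CPM, lay inside the 47.4 to 249 CPM of low cells elsewhere.

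S100A4, a calcium-binding protein linked to migration of mesenchymal cells, was the most abundant of the genes past 2.5-fold that are named here. Members held 3 to 524 UMIs of it with a median of 57, and low cells 0 to 198 with a median of 17. Its level was 2808 CPM in members and 1067 in low cells (2.63-fold, 2.57 to 2.70), whereas matrix-high cells elsewhere had 1434 to 2465 CPM and low cells 1096 to 1751. For S100A4, then, members were above and low cells below their counterparts in all other libraries.

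**Figure D3:**
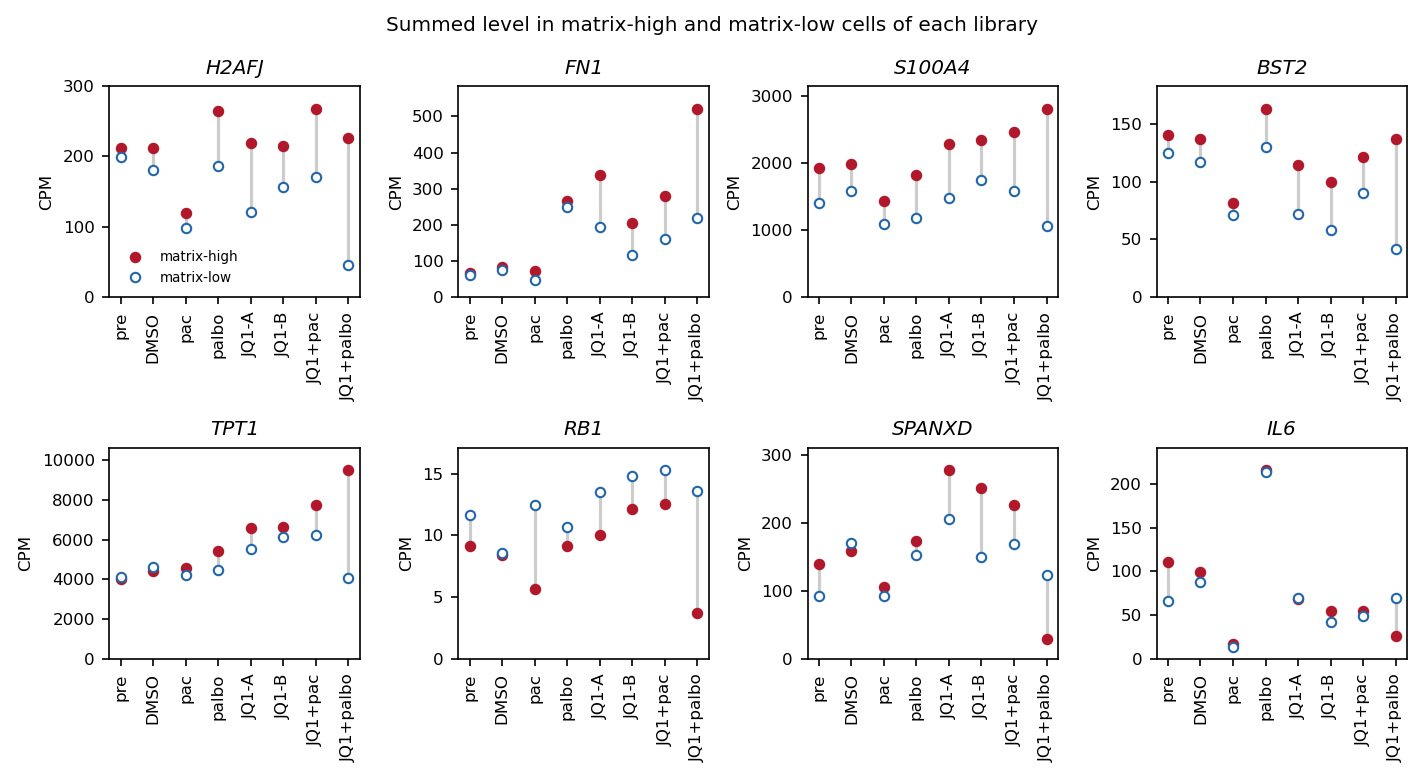
CPM of 8 genes in matrix-high (filled red) and matrix-low cells (open blue) of each library, joined by a grey line; pre is pre-treatment, pac paclitaxel and palbo palbociclib. The gap in H2AFJ under JQ1+palbociclib comes with a low level in matrix-low cells (46.1 CPM), and that in FN1 with a high level in matrix-high cells (521 CPM).

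Among genes lower in members, MYEOV, a gene first found overexpressed in myeloma, stood at 5.55 CPM in members and 29.6 in low cells (0.188-fold, 0.115 to 0.291), and SPECC1, a cytoskeletal coiled-coil protein, at 6.34 against 28.6 CPM (0.222-fold, 0.140 to 0.334). SPANXD, a germ cell gene that many cancers express and whose near-identical copies make its count uncertain, stood at 28.3 against 124 CPM (0.229-fold). The median member had 0 UMIs of SPANXD and the median low cell 2, and the 10 highest members held 73.8% of the members' SPANXD UMIs. HBE1, the embryonic epsilon globin, stood at 57.9 against 185 CPM (0.313-fold), again with a median of 0 in members and 2 in low cells.

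Metabolic and signalling genes were among the other large falls. PCBD1, which recycles the cofactor tetrahydrobiopterin, stood at 19.8 against 77.7 CPM (0.255-fold), ST3GAL5, the synthase of ganglioside GM3, at 6.61 against 21.6 CPM (0.306-fold), and the transcript Z83851.1 had a ratio of 0.298. The cholesterol exporter ABCA1 (0.356), the guanine deaminase GDA (0.362), the secretory pathway kinase FAM20C (0.364), the salt-inducible kinase SIK1 (0.368) and the adhesion molecule CADM1 (0.379) lay close together. IL6, a cytokine of the senescent secretome, stood at 26.2 CPM in members and 69.0 in low cells (0.380-fold, 0.305 to 0.467), and low cells elsewhere had 13.3 to 214 CPM of IL6.

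Matrix genes are given list by list, to be read beside the 3.76% higher and 10.8% lower of all compared genes. Of the collagens, 6 of 20 could be compared and 1 was higher, COL6A2 of type VI collagen, at 64.2 against 36.6 CPM (1.75-fold, 1.499 to 2.05), with a median log2 ratio of -0.10 over the 6 beside -0.14 over all genes. The other compared collagens differed by less than 1.5-fold, among them COL6A1 (1.09-fold) and COL5A1 (0.778-fold). Below the expression limit, and singled out after its values were seen, COL12A1 stood at 9.25 against 1.63 CPM (5.68-fold, 3.26 to 10.1). Collagen maturation enzymes and chaperones had 1 of 14 higher, the collagen-binding SPARC (222 against 111 CPM, 2.005-fold), and 1 lower, the procollagen enhancer PCOLCE2 (0.563-fold). The collagen chaperone SERPINH1 stood at 1.43-fold and the hydroxylase subunit P4HB at 1.20-fold. Over these 14 genes the median log2 ratio was 0.22, beside -0.14 over all genes, and 9 of the 14 lay above 0.

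Matrix glycoproteins were mixed, with 3 of 14 higher and 3 lower. FN1, the proteoglycan VCAN (1.91-fold, 1.63 to 2.23) and the adhesion protein TGFBI (1147 against 605 CPM, 1.90-fold) were higher. Fibulin 1 (FBLN1, 18.2 against 54.2 CPM, 0.337-fold), thrombospondin 1 (THBS1, 0.539-fold) and the glypican GPC1 (0.650-fold) were lower. Among laminins and integrins the fibronectin receptor subunit ITGA5 was 1.94-fold higher, and the laminin LAMA5 (0.555-fold), the laminin receptor subunit ITGA6 (0.605-fold) and ITGB5 (0.639-fold) were lower, of 10 compared. Of 16 matrix proteases, HTRA1 and ADAMTS6 (2.08-fold) were higher, and ADAMTS12 (0.354-fold), the plasminogen activator PLAT (0.530-fold) and ADAM12 (0.595-fold) were lower. Of 8 protease inhibitors, TFPI2 was 1.65-fold higher, while TIMP1, a metalloproteinase inhibitor of the same family as TIMP3, stood at 3420.3 CPM in members and 5369.7 in low cells (0.637-fold, 0.625 to 0.649).

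**Figure D4:**
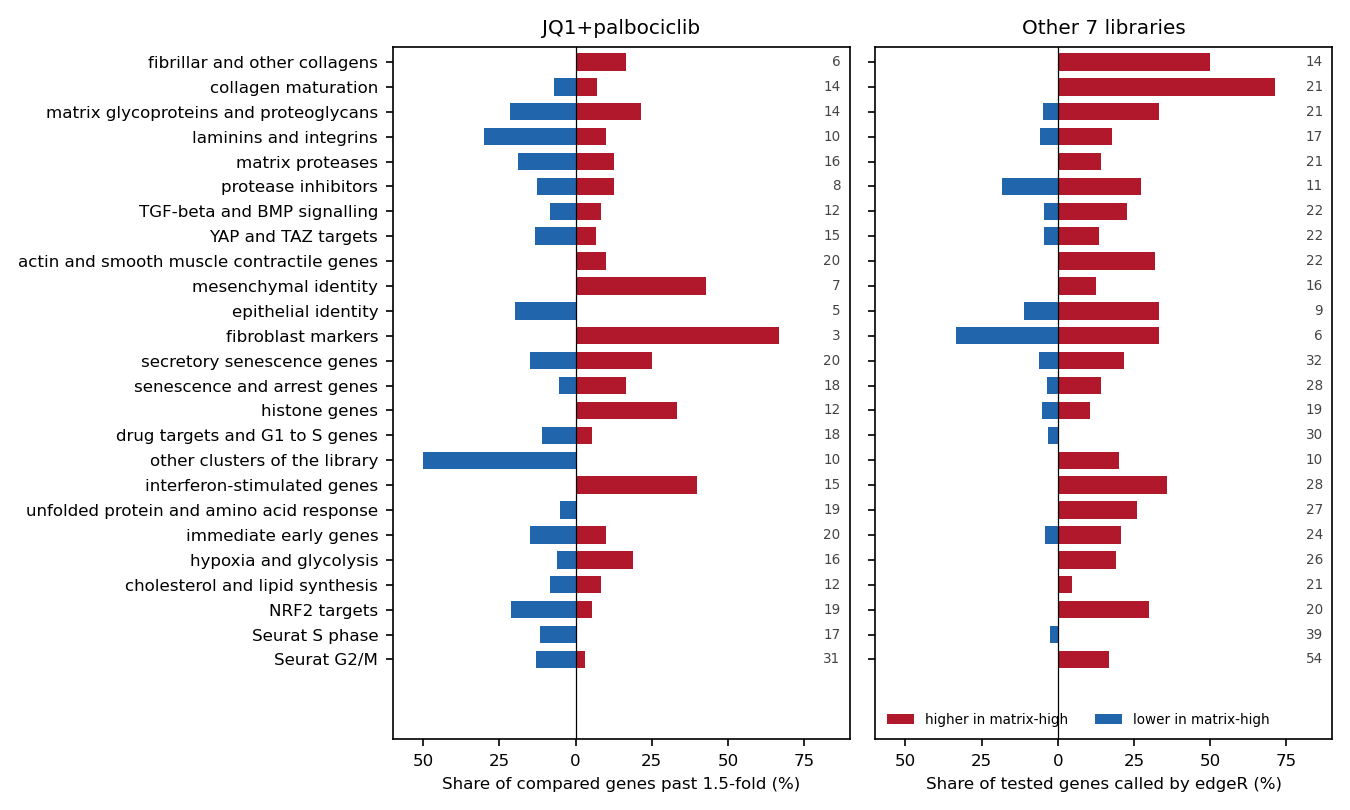
Share of each gene list that was higher (red, to the right) or lower (blue, to the left) in matrix-high cells, in percent of the genes given at the right edge; left panel, genes past 1.5-fold in JQ1+palbociclib, right panel, genes called by edgeR over the other 7 libraries. The panels use different limits, so their shares are not compared. In JQ1+palbociclib 1 of 14 collagen maturation genes was past 1.5-fold higher, with a median log2 ratio of 0.22 over the 14. Over the other libraries 15 of 21 were called higher at any size of change, with a median log2 fold change of 0.35. For interferon-stimulated genes the counts were 6 of 15 and 10 of 28. No list on immune and endothelial cells is drawn, since none of its genes could be compared.

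Identity markers were compared next. Of 7 mesenchymal genes compared, 3 were higher and none lower: S100A4, the cadherin CDH13 (63.7 against 26.6 CPM, 2.40-fold) and the intermediate filament vimentin (VIM, 4869.6 against 2961 CPM, 1.64-fold, 1.62 to 1.67). Matrix-high cells elsewhere held 3359.5 to 4412 CPM of VIM. Of 5 epithelial genes, none was higher past 1.5-fold and 1 was lower, keratin 7 (KRT7, 0.615-fold). The epithelial list did not fall as a whole, since 3 of the 5 had a log2 ratio above 0. Its median log2 ratio was 0.35, beside 0.40 for the mesenchymal list and -0.14 over all genes. Of the fibroblast list, 10 of 14 genes were in the table and 3 could be compared, of which S100A4 and PDGFRA (23.5 against 13.7 CPM, 1.72-fold) were higher, and the list summed to 2986 CPM in members and 1259.7 in low cells, nearly all of it S100A4. Its defining genes were at or near 0, with 0 UMIs of LUM, 1 against 3 of the protease FAP and 9 against 12 of decorin (DCN). Immune and endothelial markers summed to 10.6 against 7.30 CPM, with 0 UMIs of PTPRC, CD3D and CD14. Contractile genes had 2 of 20 higher, calponin 3 (CNN3, 2.43-fold) and TAGLN2 (1.53-fold), and none lower.

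Of 34 interferon-stimulated genes, 15 could be compared, and 6 were higher and none lower, against 3.76 and 10.8% of all compared genes, with a median log2 ratio of 0.53 beside -0.14 over all genes. BST2 (tetherin), which holds budding virus at the cell surface, stood at 136 CPM in members and 42.0 in low cells (3.25-fold, 2.88 to 3.66). Members held 0 to 23 UMIs of BST2 with a median of 3, and low cells 0 to 10 with a median of 0. As with H2AFJ, the members' level lay inside the 81.4 to 163 CPM of matrix-high cells elsewhere, while low cells lay below the 57.8 to 130 CPM of theirs. IFI27 stood at 113 against 35.7 CPM (3.18-fold, 2.79 to 3.63), IFI6 at 24.6 against 8.79 CPM (2.80-fold), and the membrane protein IFITM2 was 2.33-fold higher. The antigen-presenting HLA-B and HLA-C were 2.23- and 1.70-fold higher, and reads of both may be shared with other class I genes, as those of IFITM2 may be with IFITM3.

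Promoters of the 3 higher genes that held a core of the interferon response element are shown, with the word GAAANNGAAA in capitals on either strand (matches may overlap). They are chr19:17405631-17405880 on the minus strand, chr14:94110486-94110735 on the plus strand and chr1:27672193-27672442 on the minus strand, again 250 bases before the start (RefSeq, GRCh38.p14).
BST2: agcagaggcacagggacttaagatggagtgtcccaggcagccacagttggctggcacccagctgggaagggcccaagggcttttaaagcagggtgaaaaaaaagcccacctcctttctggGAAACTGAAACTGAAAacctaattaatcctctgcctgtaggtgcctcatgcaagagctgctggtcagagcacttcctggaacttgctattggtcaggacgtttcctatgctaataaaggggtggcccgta
IFI27: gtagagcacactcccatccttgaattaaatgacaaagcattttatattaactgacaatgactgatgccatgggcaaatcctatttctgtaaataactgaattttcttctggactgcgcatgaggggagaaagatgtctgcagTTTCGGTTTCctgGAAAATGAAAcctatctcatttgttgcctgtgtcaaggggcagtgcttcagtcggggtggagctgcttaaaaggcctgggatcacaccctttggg
IFI6: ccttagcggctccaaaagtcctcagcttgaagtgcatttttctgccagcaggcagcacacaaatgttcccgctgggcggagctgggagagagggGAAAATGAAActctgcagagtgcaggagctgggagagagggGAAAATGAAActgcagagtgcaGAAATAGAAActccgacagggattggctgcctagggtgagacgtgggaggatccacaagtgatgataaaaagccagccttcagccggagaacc
BST2 and IFI27 held 2 matches each and IFI6 held 3. Over all 35116 promoters 3.02% held this word. Of the 6 higher genes 5 had a promoter entry and 3 of these held it, and of the 9 compared genes that were not higher 6 had an entry and 4 of these held it, so that the word did not separate the genes that were higher from those that were not.

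Genes of arrest and senescence moved in both directions. Of 18 compared, H2AFJ, the CDK inhibitor CDKN1A (66.4 against 30.3 CPM, 2.19-fold, 1.87 to 2.57) and the kinase PLK3 (1.67-fold) were higher and GADD45B (0.664-fold) lower. Of 20 genes of the senescent secretome, 5 were higher, namely IGFBP7, IGFBP6, the chemokines IL8 (179 against 87.8 CPM, 2.04-fold) and CXCL3 (1.82-fold) and the growth factor EREG (1.82-fold). IL6, PLAT and IGFBP4 (93.6 against 171 CPM, 0.548-fold) were lower. Histone genes had 4 of 12 higher and none lower: H2AFJ, the linker histones H1F0 (182 against 81.3 CPM, 2.24-fold) and HIST1H1C (1.83-fold), and HIST1H2BK (1.94-fold), whose reads may be shared with near-identical histone copies. The median log2 ratio over the 12 histones was 0.01.

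Drug targets and genes of the G1 to S step had 1 of 18 higher, CDKN1A, and 2 lower. CDK6, a target of palbociclib, stood at 15.6 CPM in members and 32.3 in low cells (0.483-fold, 0.362 to 0.634), and the survival gene BCL2L1 at 66.4 against 103 CPM (0.647-fold). CDK4, the other target, stood at 133 against 127 CPM (1.05-fold, 0.948 to 1.16) and its partner CCND1 at 344 against 454 CPM (0.760-fold, 0.715 to 0.806). The BET genes BRD2 and BRD3, targets of JQ1, had ratios of 0.971 and 0.860, and MYC stood at 567 against 574 CPM (0.989-fold, 0.943 to 1.04). All of these but CDKN1A, CDK6 and BCL2L1 differed by less than 1.5-fold. CDK6 in members lay below the 17.7 to 28.8 CPM of matrix-high cells elsewhere, and in low cells above the 11.7 to 29.4 CPM of theirs.

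RB1, the retinoblastoma gene at chr13:48877880-49173572 on the plus strand (GRCh37), lay below the expression limit but belongs to the same list. Its UMIs numbered 14 in members and 192 in low cells, or 3.70 against 13.6 CPM (0.272-fold, 0.146 to 0.468). An RB1 UMI was seen in 12 of 143 members (8.39%, exact interval 4.41 to 14.2%) and in 24.96% of low cells (21.6 to 28.5%), and after thinning to 10000 UMIs in 2.13 and 10.2%. Matrix-high cells had 9.17 CPM in pre-treatment, 8.39 in DMSO, 5.63 in paclitaxel, 9.15 in palbociclib, 10.1 in JQ1-A, 12.1 in JQ1-B and 12.5 in JQ1+paclitaxel, all above members. Low cells had 11.6, 8.59, 12.5, 10.7, 13.5, 14.8 and 15.3 CPM in the same order, and the 13.6 CPM of low cells under JQ1+palbociclib lay inside that range. No cell type that should lack RB1 was present, so background from free RNA was not measured. The paper reports a nonsense mutation of RB1 in JQ1+palbociclib-selected cells, at unlike frequencies in the replicates that survived. It also reports that SUM159 cells with RB1 deleted were resistant to the combination. The counts do not show which cells carried the mutation, and its part in these RB1 levels was not tested.

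Cell cycle lists had shares of lower genes near the 10.8% of all compared genes. Of 17 S-phase genes compared none was higher and 2 lower, RRM2 (47.1 against 106 CPM, 0.442-fold) and PCNA (0.595-fold), and of 31 G2/M genes 1 was higher, the heterochromatin protein CBX5 (1.88-fold), and 4 lower, namely CKS2 (0.622-fold), the proliferation marker MKI67 (47.1 against 76.5 CPM, 0.615-fold), CKAP2 and CENPF. With cells thinned to 10000 UMIs, 45.4% of members (exact interval 36.99 to 54.0%) and 40.3% of low cells (36.4 to 44.4%) were placed in G1, and the intervals overlap. As many as 46.1% of members lay near a boundary between phases, so the phase shares are ranges and not counts of arrested cells.

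Metabolic and stress lists varied. Of 16 genes of hypoxia and glycolysis, the stress gene NDRG1 (2.78-fold), GAPDH (9872 against 5490.3 CPM, 1.80-fold, 1.78 to 1.82) and ALDOA (1.67-fold) were higher and the carbonic anhydrase CA12 (0.512-fold) lower. GAPDH in low cells, at 5490.3 CPM, lay below the 6132 to 11830 CPM of low cells elsewhere, and in members inside the 6163 to 10419 CPM of matrix-high cells. NRF2 targets had TKT higher (1.51-fold) and 4 of 19 lower, the glutathione synthesis genes GCLC (0.465-fold) and GCLM (0.623-fold), AKR1C2 (0.482-fold) and ME1 (0.509-fold). Cholesterol and lipid synthesis had IDI1 higher (1.69-fold) and the regulator SREBF1 lower (0.472-fold), of 12. Immediate early genes had DUSP6 (1.70-fold) and EGR1 (1.56-fold) higher and DUSP4 (0.443-fold), NR4A1 (0.554-fold) and DUSP1 (0.639-fold) lower, of 20. The unfolded protein list had DDIT4 lower (0.546-fold) of 19, TGF-beta genes FSTL3 higher (1.95-fold) and PMEPA1 lower (0.524-fold) of 12, and YAP targets DLC1 higher (1.86-fold) and CTGF (0.616-fold) and GADD45B lower of 15.

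A list of 10 genes that lead other cell clusters of the library, which was drawn up with results of these data known and is no independent evidence, had 5 lower and none higher: SPANXD, HBE1, the arginine synthesis gene ASS1 (0.418-fold), NPTX2 (0.558-fold) and TIMP1. Ribosomal protein genes had a median ratio of 1.06 over 78 genes, 49 of them above 1, against medians of 0.945 to 0.963 in the other libraries. The 12 mitochondrially encoded genes had a median ratio of 0.703, none above 1, against 0.904 to 1.15 elsewhere. Their part in the ratios of other genes was not tested.

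Chromosome 13 stood out among chromosomes. Relative to the median gene, its 69 compared genes had a median log2 ratio of 0.54, with 23 at least 1.5-fold higher in members and 4 lower, whereas the chromosome's median lay between -0.07 and 0.14 in the other libraries. With genes of at least 100 CPM it was 0.53 over 15 genes. The rises were not spread evenly over the chromosome. In the stretch from N4BP2L2 to SUCLA2 (chr13:33006554-48612104, GRCh37), 14 of 20 genes were past 1.5-fold and none lower, 18 lay above all other libraries, and the median ratio was 1.90 (lowest 1.14, highest 2.51), against medians of 0.992 to 1.22 in the other libraries. In the next stretch, from MED4 to SUGT1 (chr13:48627459-53275044), none of 9 genes was higher and 4 were lower, counting RB1, which is below the expression limit. The median ratio of the 9 was 0.672, close to the lowest of the other libraries (0.680 to 1.10), and 3 of the 9 lay below all of them. Of the 16 genes that precede N4BP2L2, 5 were higher and none lower (median 1.38, other libraries 0.982 to 1.22), from MZT1 to IRS2 none of 13 was higher and 1 was lower (0.831, other libraries 0.793 to 1.01), and of the 11 genes from F10 to CHAMP1 at the far end 4 were higher (1.36, other libraries 0.980 to 1.30). The limits of these stretches were set after the values were seen. The paper reports copy number calls from exome sequencing and karyotypes of selected cells, which were not used here. DNA copy number was not measured in the single cells compared, and its part in these ratios was not tested.

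Within the first stretch, TPT1, the abundant translationally controlled tumour protein, stood at 9505 CPM in members and 4091 in low cells (2.32-fold, 2.29 to 2.35). Members held 8 to 763 UMIs of TPT1 with a median of 231, and low cells 1 to 394 with a median of 85. Matrix-high cells elsewhere had 4037 to 7769 CPM, and low cells 4126 to 6217, so that members lay above and low cells just below all their counterparts. The transcription factor ELF1 was 2.51-fold higher, the esterase ESD 2.38-fold, the mitochondrial succinyl-CoA ligase subunit SUCLA2 2.28-fold and the actin bundling protein LCP1 2.06-fold. Across the boundary, MED4 stood at 0.825-fold, ITM2B at 0.979-fold and EBPL at 0.634-fold. SUCLA2 and MED4 lie on the minus strand, and their lower coordinates are 0.558 Mb (SUCLA2) and 0.2504 Mb (MED4) before the start of RB1. RB1 had the lowest ratio of the 9 genes from MED4 to SUGT1.

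**Figure D5:**
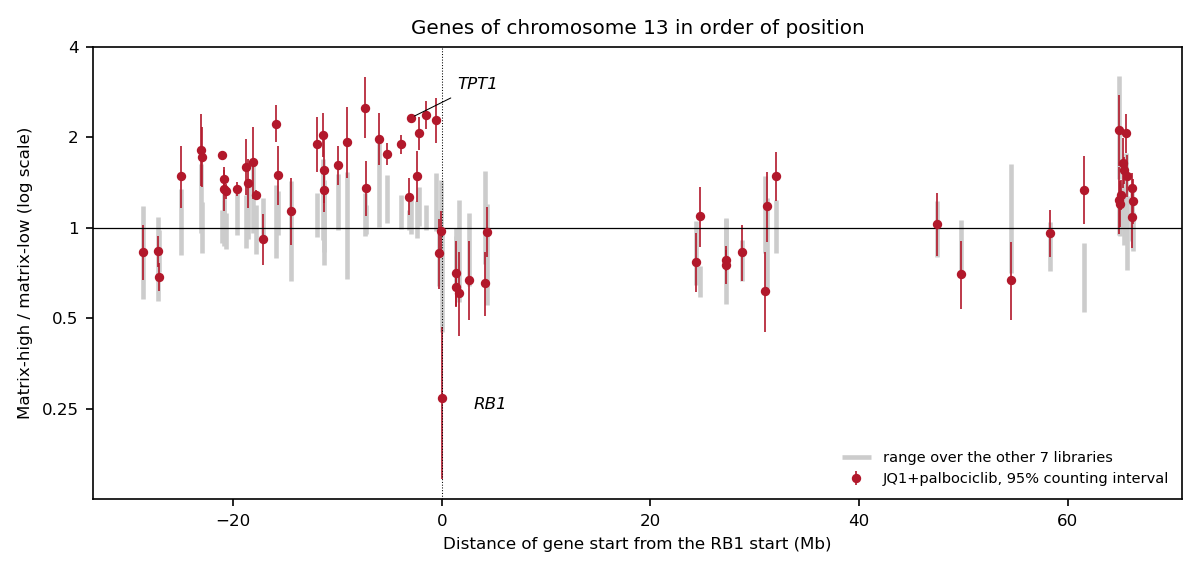
Ratio of CPM in matrix-high to matrix-low cells (log axis) for genes of the stretches of chromosome 13 described here. Each gene is placed by the distance in Mb of its lower coordinate, on either strand, from the start of RB1. Red points with bars are JQ1+palbociclib with 95% counting intervals and grey bars the range of the other 7 libraries. The 20 genes from -15.9 to -0.558 Mb have ratios of 1.14 to 2.51, and the 9 genes from -0.2504 to 4.35 Mb have ratios of 0.272 to 0.979.

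Single cells were scored by the UMIs of the 19 genes of that stretch other than TPT1, after thinning to 10000 UMIs. Members held 2 to 36 such UMIs with a median of 14, and low cells 0 to 19 with a median of 8. Medians elsewhere were 12 to 19 in matrix-high cells and 10 to 18 in low cells, so that the low cells of JQ1+palbociclib, and not its members, lay outside the other libraries. Above 13 UMIs, the 95th percentile of low cells, were 73 of 141 members (51.8%, exact interval 43.2 to 60.3%), 3.90% of low cells and 13.5% of cells with 2 to 4 UMIs of the 3 rule genes, and 32.6 to 78.8% of all cells in each other library. The limit was taken from the low cells, so their share above it is fixed by its choice, and it lies 1 UMI under the members' median.

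Other chromosomes differed less. Chromosome 22 (median log2 ratio 0.27), 4 (0.20) and 12 (0.18) were the next highest, and chromosome 2 (-0.26, with 90 of 345 genes past 1.5-fold lower), 9 (-0.22) and 20 (-0.21, with 29 of 145 lower) the lowest. On chromosome 17, 53 of 275 genes were lower and 2 higher. In runs of 15 neighbouring genes, the highest medians (up to 1.03) all lay on chromosome 13. The lowest (-0.56) was shared by overlapping runs on chromosome 17 between ELAC2 and MAP2K3 (chr17:12894929-21218544). Some of these runs, but not all, hold SPECC1 (chr17:19912178-20222339).

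The same contrast was then tested over the 7 other libraries, which the choice of cells in JQ1+palbociclib did not use, with the library as a block. The rule counts raw UMIs, and the median matrix-high cell was deeper than the median low cell in each of them. It had 24466 against 18256 UMIs in DMSO and 22245 against 21191.5 in JQ1-A. With low cells matched for depth, edgeR called 443 genes higher and 314 lower, beside the main counts that follow. Of 10418 genes, the quasi-likelihood test of edgeR (p adjusted by Benjamini-Hochberg) called 493 higher (4.73%) and 301 lower (2.89%) in matrix-high cells, of which 333 were higher and 186 lower in all 7 libraries. Differences were small, and 127 of the higher and 30 of the lower genes passed 1.5-fold. The libraries differ in treatment, so this test covers what the contrast shared over them. No cultures were told apart within a library, and the p-values measure the spread between libraries. These calls rest on the block: without it edgeR called 0 genes, with 332 at an unadjusted p under 0.05, and with it DESeq2 called 210 higher and 194 lower. The largest called rises were KLHL4 (log2 fold change 1.61 ± 0.22, SE), the collagen receptor DDR2 (1.39 ± 0.19), MEG3 (1.37 ± 0.17), REPS2 (1.32 ± 0.24) and MGP, a matrix inhibitor of calcification. MGP stood at 64.1 ± 27.4 CPM in matrix-high and 26.6 ± 16.6 in matrix-low cells (SD, n = 7) and was higher in 7 of 7 libraries (edgeR adjusted p = 8.06e-08). The largest called falls were SAA2 (-2.09 ± 0.18), ADIRF (-1.86 ± 0.20), AF241725.6 (-1.65 ± 0.25), MME (-1.28 ± 0.28) and DSP (-1.25 ± 0.25), all at low levels.

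Of the 172 genes higher in members, 50 were called higher over the other libraries and none lower, and of the 493 lower genes that were tested there, 52 were called lower and 15 higher. Of all 4572 compared genes tested there, 284 were called higher and 242 lower. H2AFJ was called higher elsewhere, at 216 ± 49.0 CPM in matrix-high and 159 ± 36.9 in low cells (SD, n = 7; log2 fold change 0.42 ± 0.07, edgeR adjusted p = 0.000415), and so was FN1 at 187 ± 113 against 129 ± 75.2 CPM (0.49 ± 0.08, edgeR adjusted p = 0.000601). Both were higher in 7 of 7 libraries. BST2 (0.37 ± 0.07, edgeR adjusted p = 0.00123), IFI27 (0.50 ± 0.11, edgeR adjusted p = 0.00679), CARD16, IGFBP7, S100A3, S100A4, PTGS1 and SYT12 were also called higher. KRT75, HTRA1, IGFBP6, VIM, GAPDH and CDKN1A were not called over the other libraries. SPANXD (0.34) and ST3GAL5 (0.49) were called higher there although members had less of them, and PCBD1 (-0.42) and RB1 (-0.43 ± 0.12, edgeR adjusted p = 0.0288) were called lower, the direction seen in members. The RB1 call rests on few UMIs, 24 to 136 per group. Its ratios ran from 0.451 in paclitaxel to 0.976 in DMSO, and only paclitaxel had a counting interval off 1 (0.289 to 0.692).

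By list, counts over the other libraries are of edgeR calls of any size (4.73% of all tested genes higher, 2.89% lower), unlike the 1.5-fold used in JQ1+palbociclib, and the lists differ in how many genes could be measured, so the 2 sets of counts are not compared. Collagens had 7 of 14 tested genes called higher and none lower, among them COL6A1 (log2 fold change 1.03), COL6A2 (0.95) and COL5A1 (0.72). Collagen maturation had 15 of 21 called higher and none lower, matrix glycoproteins 7 higher and 1 lower of 21, interferon-stimulated genes 10 higher and none lower of 28, and contractile genes 7 higher and none lower of 22. G2/M genes had 9 of 54 called higher and none lower, and drug targets and G1 to S genes had RB1 alone of 30 called, lower. THBS1 (0.67), PCOLCE2 (0.35), PMEPA1 (0.41) and TIMP1 (0.35) were called higher over the other libraries and stood past 1.5-fold lower in members.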

How the data were processed

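Cells of 8 SUM159 libraries were profiled with 10x Genomics Chromium 3′ v2 chemistry. The authors aligned reads to hg19 and counted UMIs with Cell Ranger, and Seurat is also named in the submitters' processing notes. The deposited table holds raw UMI counts per gene and cell (18955 genes, none seen in fewer than 3 cells), and a second deposited file gives each cell's library. The members and gene lists were chosen with earlier results of these data known.

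UMI counts were summed per library and group, and CPM were computed without the 3 rule genes. In JQ1+palbociclib, genes with at least 20 CPM and 20 UMIs in the higher group were compared by ratio, with exact 95% intervals that cover counting error only. Over the other 7 libraries (123 to 219 high and 139 to 415 low cells each) the quasi-likelihood test of edgeR 4.0.16 (R 4.3.3) was fitted after TMM and filterByExpr with the library as a block, and genes were called at an adjusted p under 0.05. Tested on simulated counts for 10280 genes, this fit recovered 100% of 197 genes changed by 1 on the log2 scale and called 10 unchanged ones. Smaller changes, such as those of most called genes, were not simulated, so their recovery is unknown. Alternatives were DESeq2 1.42.0, other filters, cutoffs, depth matching and libraries left out. Summed UMIs were 3784090 in members and 14109233 in low cells. Named genes were the 15 largest ratios in each direction, FN1, H2AFJ, drug targets, up to 4 genes past 1.5-fold per list, and the 5 largest called rises and falls elsewhere. Phases came from the lists of Seurat 5.3.0 after thinning in Python 3.11.15. In a single line a doublet caller has little to work on, so none was used, and leaving out the top 5% of cells by UMIs was tried instead. Positions are from GENCODE lifted to GRCh37 and matched 98.6% of compared genes, and promoters are from RefSeq on GRCh38.p14. Some genes under these rules are not reported here.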

Additional observations from a re-analysis of the deposited data

Results flagged for a closer look

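Of 100 genes named or listed that were looked at, 6 had a ratio of matrix-high to matrix-low cells below 1 in JQ1+palbociclib with a 95% counting interval off 1 while the ratio was above 1 in each of the other 7 libraries. JQ1+palbociclib is 1 library, so the difference was not tested for any of them. MYEOV had a ratio of 0.188 against 1.03 to 2.15 elsewhere, and ST3GAL5 0.306 against 1.08 to 2.18. The malic enzyme ME1 had 0.509 against 1.04 to 1.39, and the TGF-beta feedback gene PMEPA1 0.524 against 1.02 to 1.56. Of the matrix genes, THBS1 had 0.539 against 1.11 to 2.55 and PCOLCE2 0.563 against 1.09 to 1.58.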

How the results depend on the processing

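In JQ1+palbociclib the 172 higher genes became 85 with cells chosen on COL1A1 and HTRA3 alone and 275 with ratios centred on the median gene, and the 494 lower genes became 907 with cells thinned to 10000 UMIs (3 or more against 0), 134 on COL1A1 and HTRA3 alone, 258 on TIMP3 alone and 241 centred. Thinning to 10000 UMIs brought the share of cells meeting the rule to 4.09% in pre-treatment, 8.24% in DMSO, 6.25% in paclitaxel, 5.56% in palbociclib, 7.13% in JQ1-A, 3.55% in JQ1-B, 5.73% in JQ1+paclitaxel and 5.13% in JQ1+palbociclib. Over the other libraries the 493 higher and 301 lower genes became 210 and 194 with DESeq2, 237 and 162 with cells chosen on COL1A1 and HTRA3 alone, and, without the library block, 0 and 0 by edgeR (332 genes at an unadjusted p under 0.05, DESeq2 not run without the block). With no filter on low counts 500 genes were lower. Leaving out 1 library gave 284 to 538 higher and 142 to 366 lower genes; the counts moved by over 1.5 times without JQ1-A (306 higher, 161 lower) and JQ1-B (284, 142), and the lower count also without paclitaxel (186) and palbociclib (190). The cause of these moves was not tested. Centring, and the choices on fewer rule genes in the other libraries, were added after seeing the data.

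No value past its threshold changed direction under the alternatives run. Centring on the median gene moved every log2 ratio by 0.14, which takes ratios between 0.908 and 1 to the other side of 1, and turned the balance of higher and lower genes. Of 972 gene ratios under an alternative in JQ1+palbociclib 726 moved by less than their interval, and of 813 fold changes over the other libraries 690 kept their call and 123 lost it, 40 of them without the block and 17 with DESeq2. The block pairs matrix-high with matrix-low cells of a library. Between treatments, by replicate number, no paired analysis was possible because the numbers only name libraries and each treatment but JQ1 has 1 library. Members come from 1 library of 2 pooled cultures, and ratios of genes under 20 CPM rest on few UMIs.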
